A study of Mus musculus with 35 samples.

Results

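The data describe how the proteasome inhibitor bortezomib changed the transcriptome of podocytes in mice with a mutated LIM domain of LMX1B. They cover 6 bortezomib-treated and 6 DMSO-treated *Lmx1b* H77L/lox mice, called H77L mice here, which make up 12 of the 35 mice of the series. In these mice 1 *Lmx1b* allele carried the H77L missense mutation in the first LIM domain and the other was floxed around the exons of the homeodomain. All 12 mice also carried a podocyte-specific rtTA transgene, tetO::Cre and the mT/mG reporter, were 7 to 10 weeks of age on a C57Bl/6 J background and received doxycycline at 2 mg/ml in the drinking water for 7 days, so that Cre removed the floxed homeodomain in treated and control animals alike. Bortezomib was injected intraperitoneally every other day at 0.3 µg per g body weight from the start of doxycycline, and the solvent DMSO served as the control. Cells that had turned green through Cre were taken from dissociated glomeruli by FACS on day 7, and each mouse gave its own library. A cell entered the sort only if the promoter of the rtTA transgene and Cre were active in it, and the sort says nothing on cells that were lost before day 7. The other groups of the series were *Lmx1b* C118F/lox mice, with a mutation in the second LIM domain (6 with DMSO and 5 with bortezomib), and a control genotype labelled WT (6 and 6), which was taken as the *Lmx1b* +/lox mice of the study. Of 33292 genes in the table, 10813 were tested, namely those that exceeded 1 TPM in all 6 mice of one H77L group or of the other. TPM, a measure of transcript abundance, corrects the reads of a gene for its length and scales each library to the same sum.

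Podocytes are the epithelial cells on the outside of the glomerular capillary. Their foot processes are anchored to the glomerular basement membrane by integrins and are joined by the slit diaphragm, and they respond to injury with remodelling of actin, new matrix and proteins that healthy podocytes hardly make. LMX1B is a LIM-homeodomain transcription factor that podocytes need throughout life. The proteasome cleaves ubiquitin-tagged proteins. When it is inhibited, misfolded proteins accumulate, and cells commonly answer with heat shock chaperones of the Hsp70 and Hsp40 families and with more proteasome subunits.

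The libraries held between 17245984 and 24148386 reads, as recovered from the steps of the TPM values. The sorted cells expressed all 10 podocyte identity markers that were fixed for this check. Their summed level ran from 5417 to 10066 TPM in DMSO-treated mice and 10143 to 14206 TPM after bortezomib, so that the groups did not overlap, although none of the 10 markers passed the test by itself. The libraries also held some RNA of other cells. The 20 proximal tubule markers summed to 49.7 to 1890.4 TPM in DMSO-treated mice and 76.2 to 444 TPM after bortezomib, with the highest DMSO value in mouse 46621 and the next at 122 TPM. The 14 distal tubule markers summed to 30.7 to 239.7 TPM in DMSO-treated mice and 32.6 to 97.7 TPM after bortezomib, and the 16 endothelial markers, which include the podocyte-expressed *Cldn5*, to 51.4 to 130.2 TPM in DMSO-treated mice and 116 to 193 TPM after bortezomib. The 15 mesangial and smooth muscle markers, which include *Des* and *Tagln* of injured podocytes, summed to 798 to 1201 TPM in DMSO-treated mice and 559 to 868 TPM after bortezomib, and the 10 parietal epithelial markers to 185 to 397 TPM in DMSO-treated mice and 159 to 197 TPM after bortezomib. The 27 leukocyte markers summed to 12 to 81.8 TPM in DMSO-treated mice and 10.5 to 55.8 TPM after bortezomib, with *Cd3e*, *Cd3d*, *Ms4a1*, *S100a8* and *S100a9* at 0 in every mouse, and the 7 erythrocyte markers never exceeded 11.1 TPM. The 5 X-inactivation and Y-linked transcripts summed to 11.1 to 18.5 TPM in DMSO-treated mice and 8.67 to 17 TPM after bortezomib, and *Xist* was present in all 12 mice at 8.65 to 18.4 TPM. DMSO mouse 48975 stood apart: its Pearson correlation with the other 11 mice across genes was 0.937 to 0.965, against 0.960 to 0.986 among those 11, its podocyte marker sum was the lowest and its leukocyte and parietal marker sums were the highest. Of the tested members of these lists *Des*, which encodes desmin, was the only one called (log2 fold change -0.52, adjusted p = 0.0437). The part of these other cells in the results was not tested, and in sorted bulk RNA fewer cells of a type cannot be told apart from less RNA per cell.

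Bortezomib lowered 80 genes (0.74% of those tested) and raised 45 (0.416%) at an adjusted p under 0.05 from limma on log2(TPM + 1), where 1 was added so that low values do not dominate. The genes that fell moved further than those that rose. Among the 80 genes, the median log2 fold change was -0.89 and 36 exceeded a size of 1, whereas among the 45 the median was 0.48 and 4 exceeded it. Over all genes tested the median was 0.00. The lowest adjusted p was 0.0184, so all calls lay close to the threshold. Every treated mouse lay below every DMSO mouse for 60 of the 80 genes (1.16% of all genes tested did so), and above for 29 of the 45 (1.22%). A total of 17 of the 80 genes passed the filter on low values through the DMSO group alone, with at least 1 treated mouse at or below 1 TPM. This way of entering the test favours a fall without fixing it. None of the 45 passed through 1 group only.

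**Figure D1:**
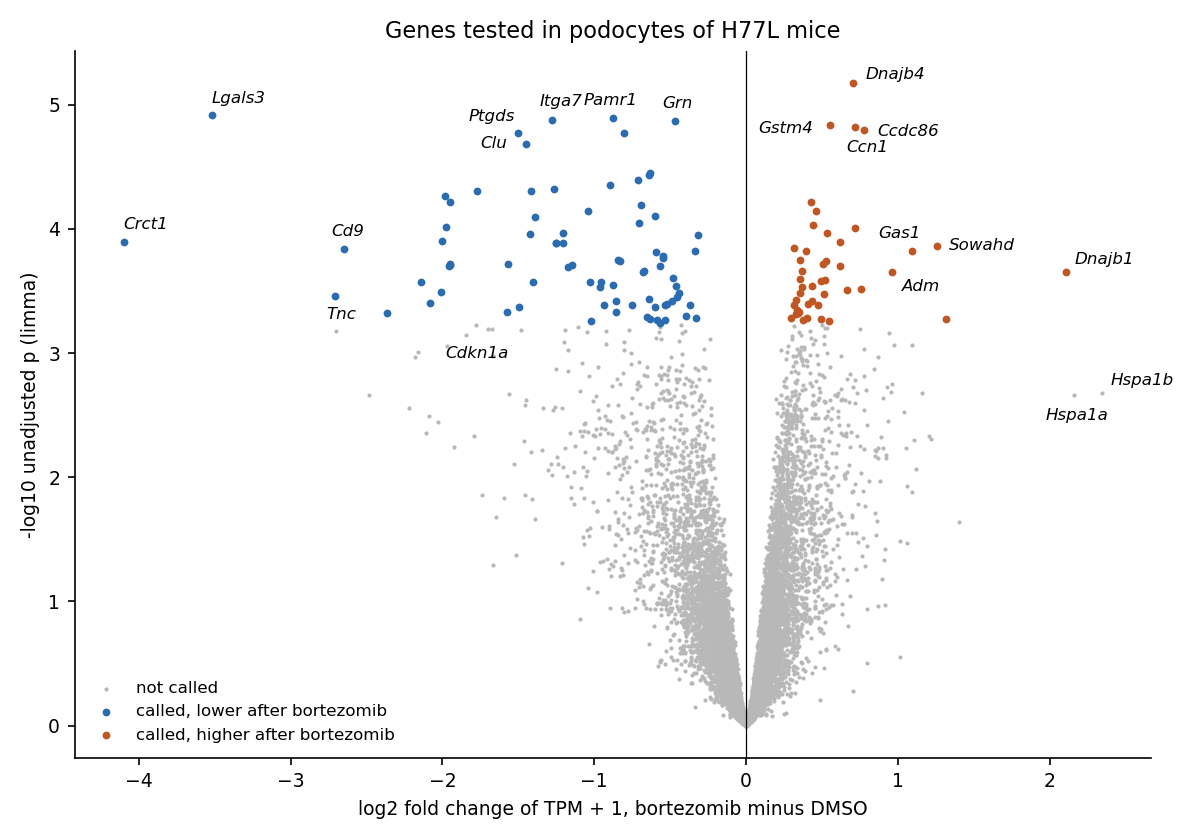
Each point is 1 of the 10813 genes tested, with the log2 fold change of TPM + 1 (bortezomib minus DMSO, 6 H77L mice each) on the x axis and -log10 of the unadjusted limma p on the y axis. The 80 genes called lower (blue) reach further from 0 than the 45 called higher (orange), and Hspa1a, Hspa1b and Cdkn1a are labelled although they were not called.

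The number of calls depended on single mice. With each of the 12 mice left out in turn, between 0 and 270 genes were called. Without treated mouse 47067, 47222 or 47993 no gene passed in limma, although 1852, 1891 and 1825 genes then had an unadjusted p under 0.05, against 2161 with all mice (9.46% of those tested lower and 10.5% higher). Without treated mouse 48638, 3 genes passed, and without DMSO mice 47592 and 46732, 12 and 23 did. The count was 73 without treated mouse 47991, 80 without DMSO mouse 48813, 223 without DMSO mouse 46621 and 270 without treated mouse 48982. All 125 genes had the same sign in each of the 12 fits. These fits reuse the mice by which the genes were chosen, so the kept sign is no independent evidence. None was called in all 12, and *Pamr1* was called in the most, 9. Without DMSO mouse 48975, the one that stood apart, 81 genes were lower and 44 higher. Of the called genes named here, *Angptl4*, *Cox7c*, *Des*, *Hmga1b*, *Hpf1*, *Mustn1*, *Ndufv2*, *Slc49a4* and *Tapbpl* did not pass without this mouse, with adjusted p-values of 0.0536 to 0.0645.

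**Figure D2:**
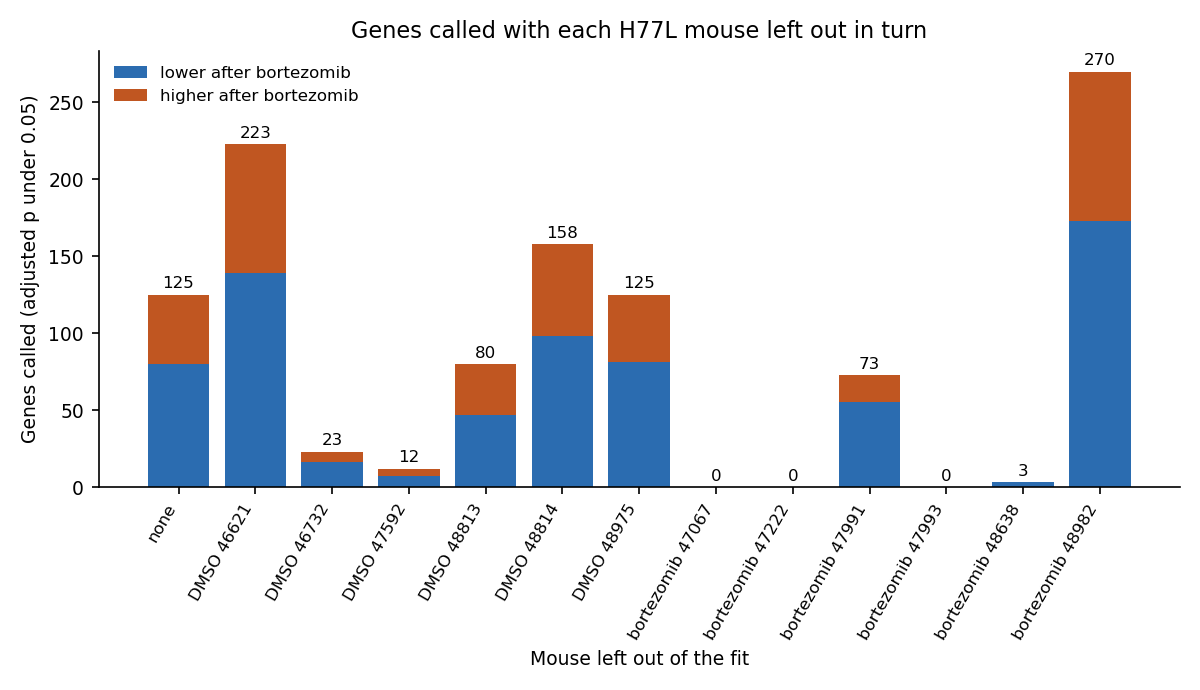
Bars give the number of genes called lower (blue) and higher (orange) after bortezomib at an adjusted p under 0.05, with all 12 H77L mice (none) and with each mouse left out. The total above each bar is 125 with all mice and 0 without treated mouse 47067, 47222 or 47993.

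The list of epithelial injury and parietal cell markers held *Crct1*, *Lgals3* and *Cd9*, which were 3 of the 12 genes with the largest falls, and *Clu*, which was not among these. *Crct1*, which codes for a cysteine-rich protein of stratified epithelia (ENSMUSG00000027913, chr3:92921508-92923001, on GRCm39 as are all gene positions here), had the largest. It ranged from 39.8 to 865 TPM (median 375) in DMSO-treated mice and from 2.6 to 53.4 TPM (median 14.2) after bortezomib (log2 fold change -4.10, standard error 0.80, adjusted p = 0.0352, n = 6 mice per group). In the DMSO group 3 mice lay between 39.8 and 102 TPM and 3 between 649 and 865 TPM, and 5 of the 6 treated mice lay below the lowest of them. *Lgals3* (ENSMUSG00000050335, chr14:47605208-47623624), which encodes galectin-3, a lectin of injured podocytes, ranged from 43.7 to 849 TPM (median 191) in DMSO-treated mice and from 5.66 to 21.9 TPM (median 16.9) after bortezomib. The groups did not overlap (log2 fold change -3.52, standard error 0.55, adjusted p = 0.0184), also without mouse 48975, which held the 849 TPM (log2 fold change -3.06, adjusted p = 0.012). *Cd9* (ENSMUSG00000030342, chr6:125437210-125471778), a tetraspanin of activated parietal cells and podocytes, ranged from 8.91 to 167 TPM (median 37.1) in DMSO-treated mice and from 1.52 to 8.55 TPM (median 4.83) after bortezomib, again without overlap (log2 fold change -2.65, standard error 0.52, adjusted p = 0.0352). *Clu* (ENSMUSG00000022037, chr14:66190200-66218999), the secreted chaperone clusterin, fell at a higher level, from 349.8 to 1011 TPM (median 488) in DMSO-treated mice and from 152 to 330.1 TPM (median 181) after bortezomib (log2 fold change -1.45, standard error 0.24, adjusted p = 0.0203). Every treated mouse had less *Clu* than any DMSO mouse. In the list of 36 epithelial injury and parietal cell markers, 16 genes were tested, these 4 fell and none rose. A negative log2 fold change was found in 15, and the median was -0.64, or -0.49 without mouse 48975. Of the 16, 2 passed the filter on low values through DMSO alone and none through bortezomib alone. Over all genes tested, 0.74% were called lower, 0.416% were called higher and 49.5% had a negative fold change. These shares belong beside the counts of this list and of every list below.

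The list of tetraspanins, galectins, annexins and S100 proteins shared 2 of these falls (*Lgals3* and *Cd9*) and added 3. Of its 36 members tested, 5 fell and none rose, while the median was -0.08, or -0.045 without mouse 48975. *S100a6*, a calcium-binding protein of proliferating epithelial cells, ranged from 162 to 1130.5 TPM (median 427) in DMSO-treated mice and from 59.3 to 184 TPM (median 120.3) after bortezomib (log2 fold change -1.95, adjusted p = 0.0352), and 5 of the 6 treated mice lay below the DMSO range. *Cd63*, a tetraspanin of late endosomes and lysosomes, ranged from 836 to 1275 TPM (median 963) in DMSO-treated mice and from 598 to 802 TPM (median 717) after bortezomib (log2 fold change -0.49, adjusted p = 0.0437). *Anxa5*, which binds phosphatidylserine, moved the least, from 1312 to 993 TPM at the median (log2 fold change -0.37, adjusted p = 0.0437). Here and below, a change written as going from one value to another gives the DMSO median and then the bortezomib median.

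**Figure D3:**
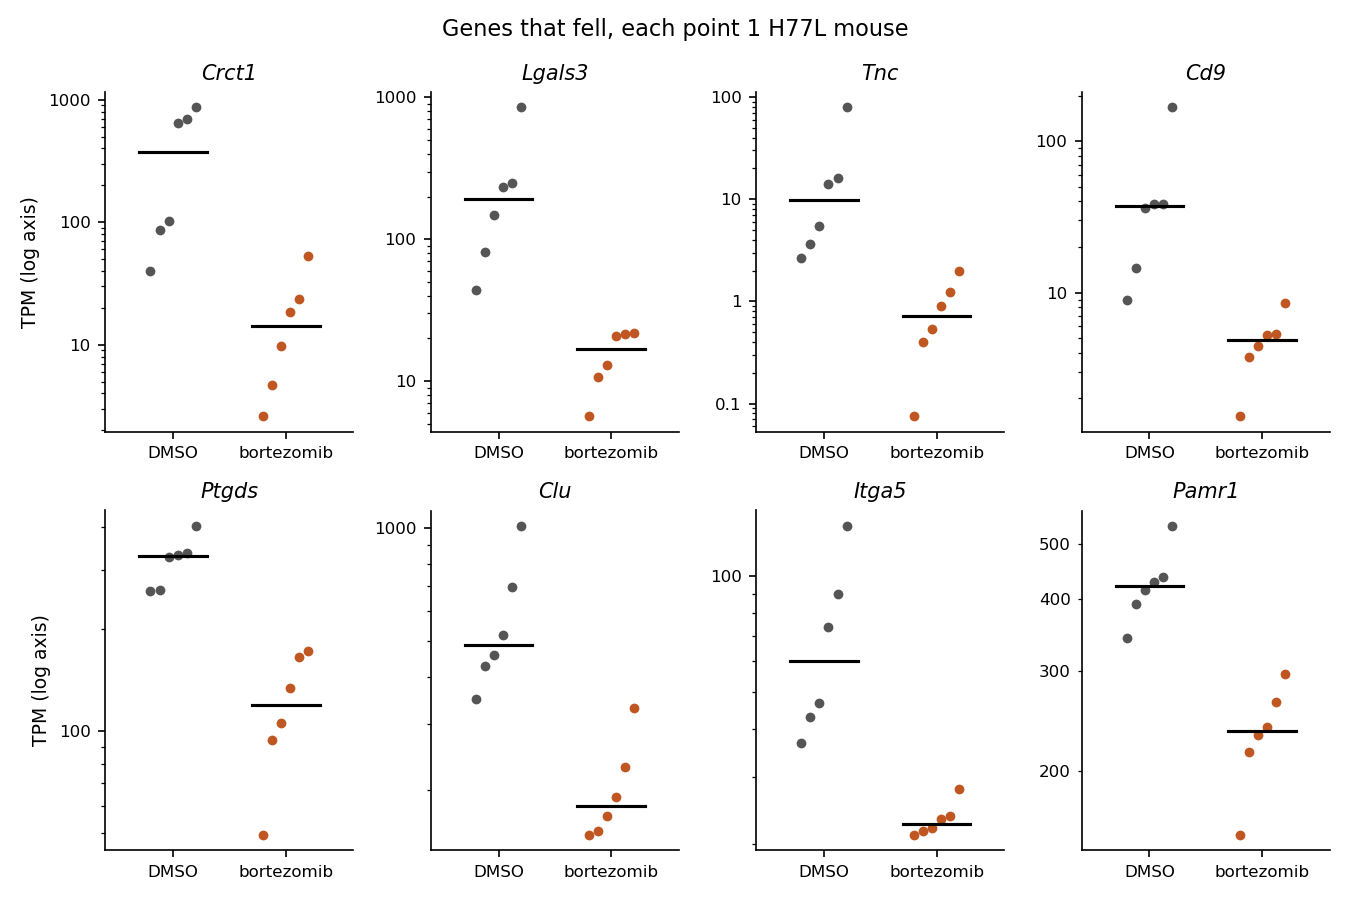
TPM on log axes of 8 genes that fell, 1 point per H77L mouse (6 with DMSO in grey, 6 with bortezomib in orange) and a line at the median. The groups are separate for all but Crct1, in which 1 treated mouse reaches the DMSO range. DMSO mouse 48975 is the highest point of Crct1, Lgals3, Tnc, Cd9, Clu and Itga5.

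Genes of the extracellular matrix fell as well. In the list of collagen IV, laminins and basement membrane genes, 18 of 30 members were tested, 4 fell, none rose and 14 had a negative fold change (median -0.32). Of these 18, 3 passed the filter on low values through DMSO alone and none through bortezomib alone. *Col4a2* (ENSMUSG00000031503, chr8:11362471-11499287), which encodes a chain of the embryonic type of collagen IV, ranged from 26.7 to 69.6 TPM (median 38.3) in DMSO-treated mice and from 11.8 to 26.4 TPM (median 15.6) after bortezomib, with no overlap (log2 fold change -1.25, standard error 0.24, adjusted p = 0.0352). Its partner *Col4a1*, with which it shares a divergent promoter, had medians of 18.3 TPM with DMSO and 6.85 TPM with bortezomib and did not pass the test (log2 fold change -1.45, adjusted p = 0.0762). *Lamc1*, the gamma chain of the laminin of the mature glomerular basement membrane, fell from 105 to 71.1 TPM at the median (log2 fold change -0.60, adjusted p = 0.0336). *Tinagl1*, a basement membrane glycoprotein, fell from 10.5 to 2.47 TPM (log2 fold change -1.97, adjusted p = 0.0352). *Col4a2*, *Lamc1* and *Tinagl1* had no overlap between the groups. *Col4a3*, of the collagen IV that podocytes secrete in the adult, had medians of 623 TPM with DMSO and 605 TPM with bortezomib, with a log2 fold change of 0.06 (adjusted p = 0.881).

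Of 63 genes of the interstitial and matricellular matrix, 32 were tested. *Tnc*, *Col5a3* and *Col16a1* fell, *Ccn1* rose, and 25 had a negative fold change (median -0.20). Of these 32, 5 passed the filter on low values through DMSO alone and 1 through bortezomib alone. *Tnc* (ENSMUSG00000028364, chr4:63878014-63965443), which encodes the wound matrix protein tenascin-C, ranged from 2.67 to 79 TPM (median 9.83) in DMSO-treated mice and from 0.0752 to 2 TPM (median 0.719) after bortezomib (log2 fold change -2.71, standard error 0.59, adjusted p = 0.0432). The treated mice thus lay near the limit of detection, and the added value of 1 makes the fold change an understatement. *Col16a1*, a collagen that attaches to fibrils, went from 7.19 to 1.92 TPM at the median (log2 fold change -1.98, adjusted p = 0.0308). *Col5a3*, a chain of fibril-forming collagen V, went from 8.21 to 0.679 TPM (log2 fold change -2.14, adjusted p = 0.0387). All 3, and *Tinagl1*, were among the 17 genes that passed the filter through DMSO alone. *Timp2*, an inhibitor of matrix metalloproteases, was abundant and ranged from 2143 to 3405 TPM (median 2496) in DMSO-treated mice and from 1542 to 2054 TPM (median 1769) after bortezomib without overlap (log2 fold change -0.53, adjusted p = 0.0437). It was the only one of 21 matrix proteases and inhibitors tested that passed (median -0.16, or -0.09 without mouse 48975).

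Of 27 integrin and focal adhesion genes tested, *Itga5*, *Itga11* and *Vcl* fell and none rose, while 20 had a negative and 7 a positive fold change (median -0.15). *Itga5* (ENSMUSG00000000555, chr15:103252713-103275270), a subunit of the fibronectin receptor, ranged from 36.7 to 135 TPM (median 60.1) in DMSO-treated mice and from 21.2 to 27.9 TPM (median 22.7) after bortezomib (log2 fold change -1.41, standard error 0.25, adjusted p = 0.0298). The treated mice lay within a narrow band below the whole DMSO range. *Itga7*, a laminin receptor subunit named for its low p, ranged from 28.7 to 72.5 TPM (median 36.2) in DMSO-treated mice and from 10.9 to 20.4 TPM (median 15.1) after bortezomib (log2 fold change -1.28, adjusted p = 0.0184). *Itga11*, a collagen receptor subunit, and *Vcl*, the focal adhesion protein vinculin, went from 38.4 to 24.1 TPM (log2 fold change -0.65) and from 82.9 to 60.8 TPM (log2 fold change -0.53), with an adjusted p of 0.0479 each.

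Immune genes fell in part. Of 28 complement genes, 7 were tested, of which *Clu*, *C1s1* and *C1ra* fell and none rose (median -0.88, or -0.67 without mouse 48975). *C1s1* and *C1ra*, serine proteases that start the classical pathway, both fell. *C1s1* lay between 41.9 and 88.5 TPM with DMSO and between 16.7 and 41.8 TPM with bortezomib, and *C1ra* ranged from 40.6 to 95.1 TPM (median 53.8) in DMSO-treated mice and from 16.9 to 39.3 TPM (median 31.6) after bortezomib (log2 fold changes -1.17 and -0.96, adjusted p = 0.0352 and 0.0401). Neither had overlapping groups. Their inhibitor *Serping1* had medians of 706 TPM with DMSO and 402 TPM with bortezomib and did not pass (log2 fold change -0.88, adjusted p = 0.0904). Among 45 of 77 interferon-induced genes tested, 41 had a negative fold change (49.5% of all genes did). The median of -0.40, or -0.30 without mouse 48975, lay well below that of all genes, but only 1 was called. This was *Ifit3* (ENSMUSG00000074896, chr19:34560899-34566443), an inhibitor of viral replication, which ranged from 63.7 to 113 TPM (median 78.3) in DMSO-treated mice and from 33.5 to 62.5 TPM (median 44.8) after bortezomib (log2 fold change -0.84, standard error 0.17, adjusted p = 0.0352). It has a near-identical copy, *Ifit3b*, so its value is uncertain where reads fit both. In C118F mice the interferon-induced list had a median of -1.35 (48 of 49 negative), and in WT mice of -0.02 (21 of 42 negative). *Ifit3* had a log2 fold change of -1.65 in C118F mice (limma unadjusted p = 0.00555, adjusted p = 0.784) and of -0.24 in WT mice (unadjusted p = 0.157).

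Of 19 genes of MHC class I antigen presentation tested, 1 fell, none rose and the median was -0.25. *Tapbpl*, a peptide editor of class I molecules, went from 34.3 to 25.9 TPM (log2 fold change -0.44, adjusted p = 0.0419). *B2m*, the light chain of class I molecules, ranged from 3819 to 20278 TPM (median 5089) in DMSO-treated mice and from 2669 to 5529 TPM (median 2843) after bortezomib and did not pass (log2 fold change -0.91, adjusted p = 0.148). Without DMSO mouse 48975, the source of its highest value, the log2 fold change was -0.57. In the list of NF-kappaB genes, 21 of 22 tested had a negative fold change (median -0.27, or -0.16 without mouse 48975) and *Csf1* (ENSMUSG00000014599, chr3:107648364-107667806), the growth factor of macrophages, fell. It ranged from 20.8 to 141 TPM (median 53.3) in DMSO-treated mice and from 7.63 to 21.1 TPM (median 13.8) after bortezomib (log2 fold change -1.96, adjusted p = 0.0352), with 5 of the 6 treated mice below the DMSO range. The 8 immunoproteasome and activator genes had a median of -0.02 and none passed, with values of 0.25 for *Pomp*, the proteasome assembly factor (adjusted p = 0.0711), and -0.32 for *Psmb10* (adjusted p = 0.204).

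Among 55 lysosome genes tested, 45 had a negative fold change (median -0.10), and *Grn*, *Arsb* and *Cd63* fell while none rose. *Grn* (ENSMUSG00000034708, chr11:102321141-102327874), which encodes the lysosomal growth factor progranulin, had a small but even change, from 234 to 294 TPM (median 257) in DMSO-treated mice and from 165 to 207 TPM (median 187) after bortezomib (log2 fold change -0.47, standard error 0.07, adjusted p = 0.0184). *Arsb*, a lysosomal sulfatase, went from 87.1 to 54.7 TPM at the median (log2 fold change -0.68, adjusted p = 0.0361). Of 38 oxidative stress genes, *Gpx4* alone passed, and it fell. This enzyme, which reduces lipid peroxides, ranged from 710.4 to 798 TPM (median 735) in DMSO-treated mice and from 542 to 653 TPM (median 581) after bortezomib (log2 fold change -0.33, adjusted p = 0.0352). The list had a median of 0.03.

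Further genes with a low p or a large fall belonged to no matrix or immune list. *Ptgds* (ENSMUSG00000015090, chr2:25352795-25362601), the prostaglandin D2 synthase that podocytes secrete, ranged from 260 to 404 TPM (median 329) in DMSO-treated mice and from 49.4 to 172 TPM (median 119.8) after bortezomib (log2 fold change -1.50, standard error 0.24, adjusted p = 0.0184). It was the only called member of 37 slit diaphragm and foot process genes tested, although it is an enzyme rather than a structural protein. *Pamr1* (ENSMUSG00000027188, chr2:102380060-102473386), named for its expression in regenerating muscle, ranged from 343 to 538 TPM (median 422) in DMSO-treated mice and from 155 to 297 TPM (median 235) after bortezomib (log2 fold change -0.88, standard error 0.14, adjusted p = 0.0184). *Rhbdf2*, which brings the protease ADAM17 to the cell surface, went from 42.6 to 25.6 TPM at the median (log2 fold change -0.80, adjusted p = 0.0184). None of these 3 had overlapping groups.

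*Angptl4*, an inhibitor of lipoprotein lipase known from podocytes in nephrotic syndrome, went from 90.5 to 15.7 TPM (log2 fold change -2.01). *Prss23*, a secreted serine protease, and *Sgms2*, a sphingomyelin synthase, went from 66.4 to 13.2 TPM and from 11.7 to 2.18 TPM (log2 fold change -2.08). Adjusted p-values of these 3 lay between 0.0352 and 0.0437. *Hmga1b* went from 21.6 to 5.01 TPM (log2 fold change -2.36, adjusted p = 0.0471), but it is a near copy of *Hmga1*, so its reads may be those of the parent gene. *Sgms2* and *Hmga1b* also passed the filter on low values through the DMSO group alone, which favours a fall without fixing it. *Mustn1*, a small nuclear protein of muscle and cartilage, ranged from 219 to 715 TPM (median 383) in DMSO-treated mice and from 160.3 to 251 TPM (median 207) after bortezomib (log2 fold change -1.02, adjusted p = 0.0479), with 3 of the 6 treated mice inside the DMSO range. Its adjusted p was 0.0577 without mouse 48975.

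Of the genes that rose, heat shock co-chaperones stood at the head. *Dnajb1* (ENSMUSG00000005483, chr8:84334811-84339820), an Hsp40 protein that is a classical target of the heat shock factor, had the largest rise. It ranged from 77 to 412 TPM (median 163) in DMSO-treated mice and from 252 to 1384 TPM (median 832) after bortezomib (log2 fold change 2.11, standard error 0.44, adjusted p = 0.0361), with 5 of the 6 treated mice above the DMSO range. *Dnajb4* (ENSMUSG00000028035, chr3:151884148-151916665), a relative of it, had the lowest p of all genes. It ranged from 103 to 160.4 TPM (median 119) in DMSO-treated mice and from 173 to 227 TPM (median 198) after bortezomib without overlap (log2 fold change 0.70, standard error 0.10, adjusted p = 0.0184). Their partner Hsp70 is made by *Hspa1a* and *Hspa1b*, which differ so little in sequence that reads may be split between them. *Hspa1b* ranged from 52.7 to 1221 TPM (median 323) in DMSO-treated mice and from 572 to 2897 TPM (median 1386) after bortezomib and *Hspa1a* from 46.1 to 837 TPM (median 280.2) in DMSO-treated mice and from 413 to 2233 TPM (median 1069) after bortezomib, and neither passed (log2 fold changes 2.34 and 2.16, adjusted p = 0.0757 and 0.0762). In both, 4 of the 6 treated mice lay above the highest DMSO mouse.

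**Figure D4:**
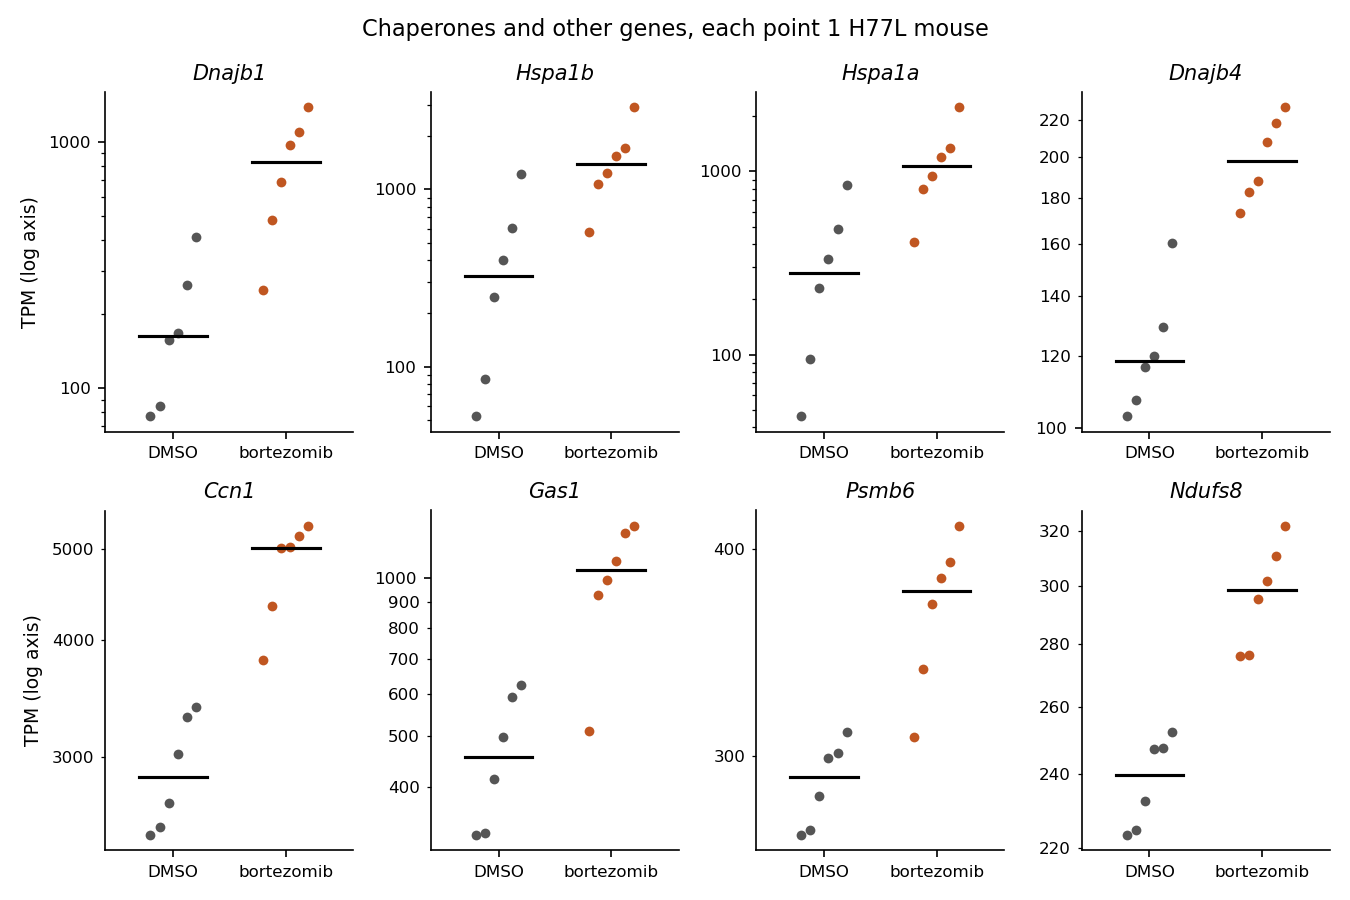
TPM on log axes of 6 genes that rose and of Hspa1a and Hspa1b, which did not pass the test, 1 point per H77L mouse (6 with DMSO in grey, 6 with bortezomib in orange) and a line at the median. Dnajb1, Hspa1b, Hspa1a, Gas1 and Psmb6 overlap between the groups, whereas Dnajb4, Ccn1 and Ndufs8 are separate between the groups.

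Across 43 cytosolic heat shock chaperones tested, *Dnajb1* and *Dnajb4* rose, none fell, 33 had a positive fold change and the median was 0.20. *Hsph1*, an Hsp110 exchange factor, had medians of 56.9 TPM with DMSO and 81.1 TPM with bortezomib (log2 fold change 0.65, adjusted p = 0.0762). *Bag3*, which takes chaperone clients to autophagy, had a log2 fold change of 0.36 (adjusted p = 0.428). Both were chosen for their function after their values were seen.

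Subunits of the constitutive proteasome, the target of the drug, had small fold changes. Of 33 subunits, all tested, 30 had a positive fold change, the median was 0.18 and 18 had an unadjusted p under 0.05 in this direction (10.5% of all genes did), but *Psmb6* alone was called. *Psmb6* (ENSMUSG00000018286, chr11:70416183-70418684), a catalytic subunit, ranged from 269 to 310.1 TPM (median 292) in DMSO-treated mice and from 308 to 413 TPM (median 377) after bortezomib (log2 fold change 0.34, standard error 0.08, adjusted p = 0.0471). *Psmb5*, the subunit that bortezomib binds, had medians of 327 TPM with DMSO and 425 TPM with bortezomib and did not pass (log2 fold change 0.27, adjusted p = 0.116). *Psmb5* was chosen for its function after its value was seen.

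Other groups of housekeeping genes had medians of a like size. Of 79 subunits of oxidative phosphorylation, 77 had a positive fold change (median 0.23) and 6 rose, namely *Ndufs8*, *Ndufb10* and *Ndufv2* of complex I, *Cox7c* of complex IV and *Atp5mf* and *Atp5mj* of the ATP synthase. *Ndufs8* ranged from 223 to 252 TPM (median 239.9) in DMSO-treated mice and from 276 to 322 TPM (median 298) after bortezomib (log2 fold change 0.32, standard error 0.06, adjusted p = 0.0352), and the largest of these rises, that of *Ndufb10*, took it from 303 to 390.4 TPM (log2 fold change 0.37). Of 76 cytosolic ribosomal protein genes tested, 72 had a positive fold change (median 0.18) and none was called. *Rpl21* and *Rps18*, whose processed copies in the genome make their values uncertain, had the lowest p (log2 fold changes 0.34 and 0.51, adjusted p = 0.0681 and 0.0699). In WT mice the oxidative phosphorylation list had a median of -0.19 (75 of 78 negative) and the ribosomal list of -0.24 (74 of 76 negative). In C118F mice these medians were 0.03 (30 of 79 negative) and -0.04 (51 of 76 negative). Of the 33 proteasome subunits, 18 had a negative fold change in WT mice and 16 in C118F mice. Gene length moved with the fold change. The median exon length was 3818 bases in the genes that rose, 6024 in those that fell and 6406 in all genes tested, and the median log2 fold change was 0.07 in the 2701 genes with the least exon sequence (median 2814 bases) and -0.03 in the 2701 with the most (median 12121 bases). The part of gene length in these shifts was not tested.

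**Figure D5:**
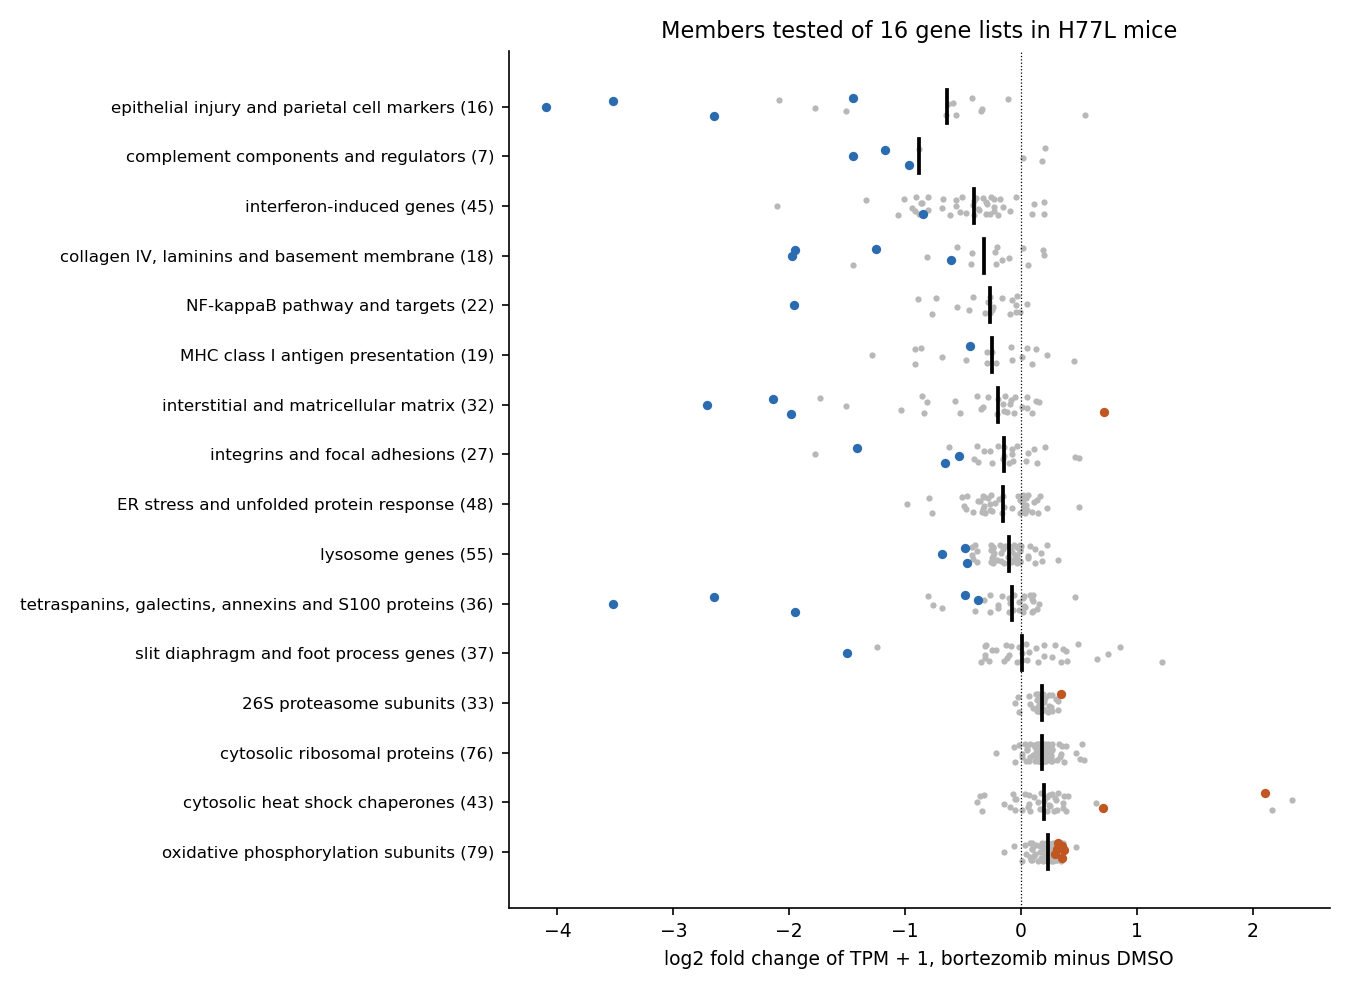
Log2 fold change of TPM + 1 (bortezomib minus DMSO, 6 H77L mice each) on the x axis for every tested member of 16 gene lists, whose number is given in parentheses. Members called lower are blue, called higher orange and not called grey, black lines give the list medians, and the lists run from a median of -0.64 for epithelial injury genes at the top to 0.23 for oxidative phosphorylation at the bottom.

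*Ccn1* (ENSMUSG00000028195, chr3:145352720-145355738), a matricellular protein and a target of YAP, ranged from 2482 to 3399 TPM (median 2857) in DMSO-treated mice and from 3809.7 to 5294 TPM (median 5020.1) after bortezomib (log2 fold change 0.72, standard error 0.11, adjusted p = 0.0184). The groups did not overlap, and *Ccn1* was the only called member of 32 TGF-beta and YAP targets tested, 27 of which had a negative fold change (median -0.27, or -0.17 without mouse 48975). *Gas1*, a membrane protein that binds hedgehog ligands and stops growth, ranged from 324 to 624 TPM (median 456) in DMSO-treated mice and from 509.7 to 1254 TPM (median 1032) after bortezomib (log2 fold change 1.09, adjusted p = 0.0352). *Adm*, the precursor of the vasodilator adrenomedullin, went from 708 to 1457 TPM (log2 fold change 0.96, adjusted p = 0.0361). *Nr4a1*, an orphan nuclear receptor, went from 1429.7 to 2368 TPM (log2 fold change 0.72, adjusted p = 0.0352) and was the only called gene of 33 immediate early genes tested (median -0.16, or -0.10 without mouse 48975). *Adm* was also the only gene called in the list of glycolysis and hypoxia targets (29 tested, median 0.01), and, with *Angptl4*, which fell, in that of VEGF, angiopoietin and semaphorin signals (20 tested, median -0.01).

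*Pak1* (ENSMUSG00000030774, chr7:97437327-97562132), a kinase that acts on actin below Rac and Cdc42, ranged from 124 to 183 TPM (median 164) in DMSO-treated mice and from 198 to 264 TPM (median 227) after bortezomib, with no overlap (log2 fold change 0.52, standard error 0.11, adjusted p = 0.0352). *Cnn2*, an actin-binding calponin, went from 335 to 473 TPM (log2 fold change 0.49, adjusted p = 0.0387). With *Mustn1*, which fell, these were the called genes among 54 actin regulators and contractile genes tested (median 0.01). *Gstm4*, a glutathione transferase, ranged from 27 to 32.9 TPM (median 29) in DMSO-treated mice and from 39.3 to 50.9 TPM (median 41.6) after bortezomib (log2 fold change 0.55, standard error 0.09, adjusted p = 0.0184), and other members of its family could share its reads.

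Further genes that rose belonged to no list. *Sowahd*, a protein with ankyrin repeats, went from 6.96 to 17.1 TPM at the median (log2 fold change 1.26). *Ccdc86*, a nucleolar protein, went from 16.5 to 28.8 TPM (log2 fold change 0.78), with no overlap. *Avpi1* and *Pxmp2*, a vasopressin-induced gene and a peroxisomal membrane protein, had log2 fold changes of 0.62 and 0.66. *Bola1*, a mitochondrial protein of iron-sulfur cluster maturation, and *Svip*, an inhibitor of ER-associated degradation, had small changes with low p (log2 fold changes 0.46 and 0.43, adjusted p = 0.0326 and 0.0315). The adjusted p-values of the first 4 of these genes lay between 0.0184 and 0.041.

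Few podocyte genes passed the test. The 37 slit diaphragm and foot process genes had a median of 0.01 and the 23 podocyte transcription factors tested of 0.02, and apart from *Ptgds* none was called. At an unadjusted limma p under 0.05, 10 of the 37 were higher and 6 lower, and 1 of the 23 was higher and 3 lower. Of the 10 podocyte identity markers, 7 were higher and 0 lower at that level, with a median of 0.32 (0.24 without mouse 48975). Over all genes tested 10.5% were higher and 9.46% lower. *Pax8* and *Hes1*, a factor of kidney development and a Notch target, had the lowest p among the transcription factors (log2 fold changes -0.56 and -1.04, adjusted p = 0.0533 and 0.114). *Nphs1*, which codes for nephrin of the slit diaphragm, had medians of 167 TPM with DMSO and 195 TPM with bortezomib (log2 fold change 0.29, adjusted p = 0.209). *Lmx1b* itself ranged from 89.9 to 139 TPM (median 119.8) in DMSO-treated mice and from 86.7 to 161 TPM (median 93.8) after bortezomib (log2 fold change -0.20, adjusted p = 0.462). Its reads stem from the H77L allele and from whatever exons the floxed allele still transcribes, and they give the RNA, not the protein. *Cdkn1c*, the cell cycle inhibitor p57 of mature podocytes, ranged from 76.4 to 285 TPM (median 240.5) in DMSO-treated mice and from 300 to 557 TPM (median 449) after bortezomib. Although the groups did not overlap, it did not pass (log2 fold change 1.09, adjusted p = 0.0557), but it did without DMSO mouse 48975, with 0.82 and an adjusted p of 0.0238. *Cldn5*, a claudin of podocyte junctions, had medians of 79.8 TPM with DMSO and 130.3 TPM with bortezomib (log2 fold change 0.85, adjusted p = 0.104). *Flna* and *Tagln*, which encode the actin-binding proteins filamin A and transgelin, had log2 fold changes of 0.03 and -0.08 (adjusted p = 0.918 and 0.852).

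No gene was called in the other lists. For p53 targets and the BCL2 family, 26 of its 31 members were tested, 20 had a negative fold change and the median was -0.35, with the lowest p for *Cdkn1a*, the cell cycle inhibitor p21, which ranged from 31.4 to 258 TPM (median 49.5) in DMSO-treated mice and from 7.35 to 26.6 TPM (median 17.7) after bortezomib (log2 fold change -1.85, adjusted p = 0.0513). These groups did not overlap, nor did those of *Phlda3*, a p53 target that restrains Akt (log2 fold change -1.97, adjusted p = 0.0566). Without mouse 48975 both passed, with -1.43 (adjusted p = 0.0399) and -1.50 (adjusted p = 0.0378), and the median of the list was -0.20. For cell cycle genes, which include *Cdkn1a* and *Cdkn1c*, 27 of its 44 members were tested, 19 had a negative fold change and the median was -0.29, or -0.14 without mouse 48975, where these 2 genes passed. For genes of ER stress and the unfolded protein response, 48 of its 52 members were tested, 30 had a negative fold change and the median was -0.16, with *Psat1* at -0.51 and *Dnajc3* at -0.26 (adjusted p = 0.0757 and 0.0851). For autophagy genes, 39 of its 39 members were tested, 27 had a negative fold change and the median was -0.08, with *Map1lc3b*, the autophagosome protein LC3B, at -0.28 (adjusted p = 0.0579). For ubiquitin genes, ligases and deubiquitinases, 46 of its 49 members were tested, 18 had a negative fold change and the median was 0.04, with *Fbxo32*, a ubiquitin ligase of muscle wasting, at -1.01 (adjusted p = 0.0766). For cholesterol genes, 29 of its 31 members were tested, 22 had a negative fold change and the median was -0.11, with 0.29 for *Pmvk*, a kinase of the mevalonate pathway (adjusted p = 0.0854). For retinoic acid genes, 13 of its 23 members were tested, 9 had a negative fold change and the median was -0.15, with *Rara*, a retinoic acid receptor, at -0.57 (adjusted p = 0.145). For receptors of podocytes, 25 of its 43 members were tested, 22 had a negative fold change and the median was -0.27, with *Erbb3* at -0.72 and *Npr2* at -0.51 (adjusted p = 0.0719 and 0.0762).

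Promoters of the called genes were searched for 6 motifs. RefSeq promoters on GRCm38.p6, from 250 bases before to 50 after the start, were matched by symbol for 99 of the 125 genes and for 8403 of the 10813 genes tested, and both strands were read. The AP-1 site TGANTCA, which Fos and Jun proteins bind, was present in 10 of 59 promoters of genes that fell (16.9%), in 1 of 40 of genes that rose (2.5%) and in 4.25% of all. The core of the interferon-stimulated response element, 2 blocks of GAAA with 2 free bases between them, was present in 1 of the 59, that of *Ifit3* (1.69%), in 2 of the 40 (5.0%) and in 2.71% of all. The antioxidant response element core TGACNNNGC was found in 15.3% of genes that fell, 22.5% of genes that rose and 15.1% of all, and the NF-kappaB site, GGG and CC with 5 free bases between them, in 72.9%, 77.5% and 69.1%. The homeodomain core TAATTA was found in 3.39%, 0% and 2.19%. The heat shock element core, the blocks GAA, TTC and GAA each 2 free bases apart, was in no promoter of a called gene, in 0.381% of all and in 4 of 37 promoters of heat shock chaperones (10.8%). The AP-1 site can overlap the antioxidant core, and it did in 2 of the 10 promoters, those of *Slc49a4* and *F2r*. A match describes letters, not binding, and no data on binding were used. Shown are 5 of the 10 promoters with an AP-1 site, 5′ to 3′ on the strand of the gene, with AP-1 sites in capitals in the first 4. In the last, that of *Ifit3*, capitals mark the response element cores, and its AP-1 site, at bases 195 to 201 of the window, is in lower case. *Ptgds* and *Tinagl1* are described above. *Cav2*, which encodes a caveolin, fell from 60.3 to 14.3 TPM at the median (log2 fold change -1.95, adjusted p = 0.0315), and *Prnp*, the prion protein, from 1753 to 1206 TPM (log2 fold change -0.55, adjusted p = 0.0352). *Cav2* and *Prnp* were chosen after their values were seen.
Ptgds (chr2:25469700-25469999, - strand): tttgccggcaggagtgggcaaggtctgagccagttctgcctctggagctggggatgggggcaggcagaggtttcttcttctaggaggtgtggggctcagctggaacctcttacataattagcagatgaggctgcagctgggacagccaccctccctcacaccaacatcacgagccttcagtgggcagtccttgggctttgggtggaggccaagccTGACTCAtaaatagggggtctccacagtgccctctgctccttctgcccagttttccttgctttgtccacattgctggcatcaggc
Tinagl1 (chr4:130175073-130175372, - strand): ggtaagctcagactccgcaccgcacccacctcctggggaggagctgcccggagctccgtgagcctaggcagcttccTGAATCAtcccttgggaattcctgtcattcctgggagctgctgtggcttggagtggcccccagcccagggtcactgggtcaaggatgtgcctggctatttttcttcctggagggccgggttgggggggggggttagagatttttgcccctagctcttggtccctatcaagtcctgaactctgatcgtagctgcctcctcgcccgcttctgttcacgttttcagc
Cav2 (chr6:17280935-17281234, + strand): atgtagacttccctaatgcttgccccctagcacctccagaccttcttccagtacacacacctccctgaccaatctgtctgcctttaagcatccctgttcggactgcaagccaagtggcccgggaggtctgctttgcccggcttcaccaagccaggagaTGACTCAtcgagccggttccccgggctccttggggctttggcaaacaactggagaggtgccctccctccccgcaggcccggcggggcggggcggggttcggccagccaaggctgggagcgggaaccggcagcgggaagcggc
Prnp (chr2:131909678-131909977, + strand): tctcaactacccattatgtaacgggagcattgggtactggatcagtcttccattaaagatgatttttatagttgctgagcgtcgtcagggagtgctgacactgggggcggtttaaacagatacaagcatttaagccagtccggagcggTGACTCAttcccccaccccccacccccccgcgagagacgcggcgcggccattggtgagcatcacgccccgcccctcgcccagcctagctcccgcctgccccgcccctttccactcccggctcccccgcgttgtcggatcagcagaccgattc
Ifit3 (chr19:34583279-34583578, + strand): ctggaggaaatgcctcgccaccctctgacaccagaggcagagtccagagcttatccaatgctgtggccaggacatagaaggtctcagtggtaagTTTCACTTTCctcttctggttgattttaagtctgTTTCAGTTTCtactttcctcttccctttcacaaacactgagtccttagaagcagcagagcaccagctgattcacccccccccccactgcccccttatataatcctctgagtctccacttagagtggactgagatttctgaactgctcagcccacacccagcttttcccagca

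The same comparison in the other genotypes shared no mice with this one. In limma, no gene was called in WT mice (10659 tested, 923 or 8.66% with an unadjusted p under 0.05, lowest adjusted p 0.169) and none in C118F mice (10814 tested, 634 or 5.86% with an unadjusted p under 0.05, lowest adjusted p 0.164). Of the 80 genes that fell in H77L mice, 57 were tested in WT mice and 24 of these had a negative fold change (48.0% of all genes did), with a median of 0.03, against 0.01 over all genes. In C118F mice, 79 were tested, 66 had a negative fold change (37.4% of all genes did) and the median was -0.27, against 0.06 over all genes. Of the 45 genes that rose, 14 of 44 tested had a positive fold change in WT mice (median -0.10) and 27 of 45 in C118F mice (median 0.08), beside the shares of negative fold changes over all genes given above. At an unadjusted limma p under 0.05, 3 of the 57 and 22 of the 79 genes also fell in WT and C118F mice, while 3 and 0 rose. Of the genes that rose in H77L mice, 6 of the 44 and 3 of the 45 also rose at that level, while 1 and 0 fell. *Clu* was among the falls shared with WT mice, with a log2 fold change there of -1.49 (unadjusted p = 0.0165), against -1.45 in H77L mice. In C118F mice it had -0.36 (unadjusted p = 0.229). *Gas1* had a log2 fold change of 1.00 in WT mice and 0.92 in C118F mice (unadjusted p = 0.000795 and 0.0301), against 1.09 in H77L mice.

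The difference between the H77L and WT responses was tested as an interaction over 24 mice. No gene passed in limma (11163 tested, 2037 or 18.2% with an unadjusted p under 0.05, lowest adjusted p 0.0564), and with each mouse left out the count ran from 0 to 275. It was 275 without bortezomib-treated WT mouse 46588, 199 without DMSO-treated WT mouse 47063 and 18 without DMSO-treated H77L mouse 46621. The lowest p belonged to *Itga5*, with a difference in log2 fold change of -1.77 (adjusted p = 0.0564), and *H1f2*, a linker histone, with -0.83 (adjusted p = 0.0564). *Itga5* had a median of 10.7 TPM with DMSO and 13.6 TPM with bortezomib in WT mice. *H1f2* was at 475 TPM with DMSO and 667 TPM with bortezomib in WT mice and had medians of 582 TPM with DMSO and 449.9 TPM with bortezomib in H77L mice, where it did not pass. The difference between the H77L and C118F responses, over 23 mice, also gave no call (11046 tested, 840 or 7.6% with an unadjusted p under 0.05, lowest adjusted p 0.574), and none with any mouse left out. Its lowest p values included that of *Hpf1*, a cofactor of PARP enzymes in DNA repair, with 0.57 (adjusted p = 0.587). *Hpf1* rose from 49.3 to 61.7 TPM in H77L mice (log2 fold change 0.33, adjusted p = 0.0437).

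Chaperone levels in WT and C118F mice are given beside these. *Dnajb4* had a median of 130 TPM with DMSO and 200 TPM with bortezomib in WT mice. Its log2 fold change there was 0.58 (limma unadjusted p = 0.0377, adjusted p = 0.573). The difference between H77L and WT mice was 0.12 (adjusted p = 0.866). In C118F mice the *Dnajb4* medians were 139 TPM with DMSO and 135 TPM with bortezomib (log2 fold change 0.11, adjusted p = 0.926). *Dnajb1* had a median of 252 TPM with DMSO and 96.8 TPM with bortezomib in WT mice and of 133 TPM with DMSO and 109 TPM with bortezomib in C118F mice, where it was not called, and the difference in log2 fold change between H77L and WT mice was 3.36 (adjusted p = 0.0814). *Hspa1b* had a median of 482 TPM with DMSO and 126 TPM with bortezomib in WT mice (difference 4.32, adjusted p = 0.0814). The WT mice with DMSO spread widely, from 65.0 to 970 TPM for *Dnajb1* and from 94.7 to 903 TPM for *Hspa1b*. The WT log2 fold changes that enter these differences were -1.25 and -1.97. *Crct1* was at 0 to 1.24 TPM in WT mice with DMSO and listed at 0 in all 6 with bortezomib, and its median was 697 TPM with DMSO and 84.5 TPM with bortezomib in C118F mice. *Lgals3* was at 5.38 TPM with DMSO and 1.94 TPM with bortezomib in WT mice and at 372 TPM with DMSO and 152 TPM with bortezomib in C118F mice, with a difference between H77L and C118F mice of -2.40 (adjusted p = 0.65). *Pak1* was at 1070.1 TPM with DMSO and 975 TPM with bortezomib in WT mice, against a median of 227 TPM in treated H77L mice.

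How far treated H77L mice lay from treated WT mice was tested separately, in a comparison that shares the treated H77L mice with the one above and in which 2545 of 10805 genes were called (23.6%, and 34.8% at an unadjusted p under 0.05). The log2 difference of treated H77L from treated WT mice was 2.08 for *Lgals3* (adjusted p = 0.00934), 4.11 for *Clu* (adjusted p = 5.8e-09) and 0.74 for *Itga5* (adjusted p = 0.000592), beside falls of -3.52, -1.45 and -1.41 with the drug. It was 0.08 for *Cd9* (adjusted p = 0.928), 0.23 for *Angptl4* (adjusted p = 0.661) and -0.25 for *Rhbdf2* (adjusted p = 0.313), which were not called in it. *Mustn1* and *Cd63* were 2.66 and 1.82 above the WT level (adjusted p = 7.24e-08 and 4.04e-07), and *Flna* and *Tagln* 3.12 and 4.36 (adjusted p = 4.55e-10 and 8.77e-10). *Pak1*, *Cdkn1c* and *Cldn5* differed from it by -2.09, -3.48 and -3.61 (adjusted p = 7.13e-11, 2.66e-11 and 2.66e-11).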

How the data were processed

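RNA of sorted podocytes was sequenced single-end after poly(A) enrichment, 1 library per mouse. The authors trimmed reads with Trim Galore 0.6.7, mapped them to GRCm39 with STAR, assessed duplicates with Picard and counted reads per gene with featureCounts 1.6.3, and deposited TPM per gene and mouse in 1 table. Tools and build are those of the submitters' processing notes. The strand setting of the counting was not given in the sources used here, so overlapping genes on opposite strands may share reads. Every column of the table was used, and 32776 of its 33292 gene IDs were found in the GENCODE annotation.

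Groups were taken from the labels. Genes above 1 TPM in all mice of either group were tested with limma 3.58.1 (R 4.3.3) on log2(TPM + 1), with an intensity trend, Benjamini-Hochberg adjustment over all genes tested and an adjusted p under 0.05 as the threshold. All tests were two-sided. Differences between genotypes in the drug response were interaction terms over both genotypes. Reads were recovered as whole multiples of the TPM step of each gene (tolerance 0.02 reads, 88.84% of 23943 genes, these held 99.976% or more of the summed TPM in all mice) and used for depth and for voom. Python 3.11.15 with pandas 2.3.3, scipy 1.17.1 and numpy 2.4.6 made the tables, and matplotlib 3.10.9 drew the figures.

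Named were the 12 called genes with the largest fall and the 12 with the largest rise, the 6 of lowest p in each direction, up to 5 called members of each of 32 pathway lists, *Lmx1b* and the genes that the study showed singly, the 3 genes of lowest p in each interaction, and up to 2 members of a list without calls. Predicted genes were left out, and results for some genes are not reported here. Nphs1, Hspa1a, Hspa1b, Xist, Des, Col4a1, Col4a3 and any gene said to be so were chosen after their values were seen. A further 9 lists held cell type markers. The genes and lists were chosen with earlier results of these data known, so a pattern across them is no independent evidence. Alternatives were pseudocounts of 0.1 and 5, no filter and a filter of 5 TPM, median centring, quantile normalization, all 35 mice in 1 fit, mouse number or *Xist* as a covariate, array weights, robust moderation, voom, and each mouse left out. Leaving out DMSO mice 46621 and 48975 together was added after seeing the data. Scripts were tested on simulated data.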

Additional observations from a re-analysis of the deposited data

Results flagged for a closer look

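In 14 of 100 groups of 6 mice checked, 1 mouse lay apart from the other 5, with a gap over range above Dixon's critical value of 0.625. For independent values with a normal spread, chance alone gives about 1 in 20. The gaps were taken on TPM without logs, which is skewed, and many groups hold the same mice, so this rate does not apply directly here. DMSO mouse 48975 accounted for 8 of the 14. It held the highest DMSO value of *B2m* (20278 TPM, next 6358), *Cd9* (167 TPM, next 38.6), *Col16a1* (23.4 TPM, next 10.9), *Itga7* (72.5 TPM, next 42.0), *Lgals3* (849 TPM, next 248) and *Tnc* (79.0 TPM, next 16.1), the highest sum of parietal epithelial markers (397 TPM, next 243) and the lowest value of *Cldn5* (25.0 TPM, next 74.5). DMSO mouse 46621 held the highest sums of proximal tubule markers (1890.4 TPM, next 122), of distal tubule and collecting duct markers (239.7 TPM, next 40.2) and of erythrocyte markers (4.18 TPM, next 0.244). Among treated mice, 48982 was highest for *Lmx1b* (161 TPM, next 106), 48638 for the sum of podocyte identity markers (14206 TPM, next 11264) and 47991 for that of leukocyte markers (55.8 TPM, next 17.1).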

How the results depend on the processing

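The 125 genes kept their sign in every alternative fit that tested them, which is no independent evidence because these fits reuse the same mice. The number of genes called moved. With all 35 mice in 1 fit, 58 genes were called (46 lower, 12 higher), and with voom on the recovered reads 73 (47 lower, 26 higher). Without a filter on low values, 0 of 20941 genes were called by limma (0 lower, 0 higher, 2554 at an unadjusted p under 0.05). With array weights 185 genes were called and with mouse number as a covariate 183, 74 of them higher in each. The other settings gave 85 to 147 calls, and 143 (100 lower, 43 higher) without DMSO mice 46621 and 48975. With each mouse left out, the count was 0 to 270 (lower 0 to 173, higher 0 to 97). The H77L minus WT difference gave 2 calls at a filter of 5 TPM and 0 to 275 with each mouse left out, and the H77L minus C118F difference 0 throughout. *Flna*, not called, had a log2 fold change of -0.057 to 0.115 with each mouse left out and *Tagln*, not called, of -0.185 to 0.012, so both changed sign. The cause of these shifts was not tested. No paired analysis was possible because the groups share no mouse number.

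With 6 mice per group, changes of the size seen for proteasome subunits were rarely called, genes near 1 TPM rest on few reads, and p-values cover the spread between mice of these groups only. Sex was not given in the labels.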
